A study of Mus musculus with 16 samples.

Results

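The libraries described here are those of C57BL/6J (B6) fetal lung, 4 from fetuses whose dams received BMS493 and 4 from fetuses of control dams, 8 of the 16 libraries in the series. BMS493 is a compound that holds every retinoic acid receptor in its repressing state (a pan-RAR inverse agonist). Dams were dosed by mouth with 3.75 µg per g per day from embryonic day 9.5 (E9.5) until E14.5, and control dams were given corn oil. Each library holds poly(A) RNA of lung at E14.5 from male fetuses. No allele was engineered in either group. Litters are not given in the labels. The p-values measure the spread between libraries within the 4 groups of the series, and they would be too small if fetuses of a group shared litters. The other 8 libraries, 4 per treatment, are the same experiment in the strain A/J and were used for the shared estimate of spread and for 1 test of the difference between strains.

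Retinoic acid is made from vitamin A and acts through the receptors RARA, RARB and RARG, which bind DNA with a retinoid X receptor. Its level in a tissue is set by the enzymes that make it (retinol and retinaldehyde dehydrogenases), store its precursor (LRAT), reduce retinaldehyde back to retinol (DHRS3) and destroy retinoic acid (the CYP26 hydroxylases). Several of these genes are themselves induced by retinoic acid, as is Rarb. In the lung the pathway is known for its part in the formation of the lung bud from the foregut and in the differentiation of airway smooth muscle. The series title links prenatal loss of this signal to airway hyperresponsiveness.

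The classic element bound by retinoic acid receptors is a direct repeat of 2 half-sites with 5 bases between them (DR5). The 300 bases around each gene's start (250 before, 50 after) were searched on both strands for a DR5. Each half-site could be the consensus form AGGTCA, the common variant GGGTCA, or AGTTCA and GGTTCA, which together make up the known Rarb element. A match in Rarb was therefore fixed by the choice of forms and is not a finding of the search. Of 32851 such RefSeq windows of GRCm38.p6, 32 held one (0.097%). Of the 73 genes called below, 46 had a window. That is under 80%, so no share over the called genes is read. The element was present in the windows of Rarb and Tnfsf13b, both lower with BMS493. That of Rarb began 53 bases before the start of the gene (chr14:16575427-16575726, minus strand). That of Tnfsf13b began 222 bases before it (chr8:10006217-10006516, plus strand). No match was found in the window of Cyp26b1 (chr6:84593761-84594060, minus strand), the gene with the lowest p-value, nor in that of Lrat. Neither window of the first pair held an element when both half-sites had to be AGGTCA. Direct repeats with 2 or 1 bases between the half-sites were searched too, and 88 and 73 of the 32851 windows held one. None was in the window of a called gene. A match is a run of letters and was not tested for binding. The element is in capitals in the windows below, which show where it lies, and the Cyp26b1 window is given for comparison.
Rarb: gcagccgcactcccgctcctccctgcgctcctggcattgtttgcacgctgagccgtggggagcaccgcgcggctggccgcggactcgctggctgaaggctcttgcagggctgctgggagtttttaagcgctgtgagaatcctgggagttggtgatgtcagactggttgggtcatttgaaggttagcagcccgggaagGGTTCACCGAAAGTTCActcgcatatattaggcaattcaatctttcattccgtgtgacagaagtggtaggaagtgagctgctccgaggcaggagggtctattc
Tnfsf13b: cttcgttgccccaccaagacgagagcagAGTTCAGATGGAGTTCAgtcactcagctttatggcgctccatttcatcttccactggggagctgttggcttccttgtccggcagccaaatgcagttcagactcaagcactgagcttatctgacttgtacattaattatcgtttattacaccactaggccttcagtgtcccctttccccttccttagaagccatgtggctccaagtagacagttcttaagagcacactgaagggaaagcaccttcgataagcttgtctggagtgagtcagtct
Cyp26b1: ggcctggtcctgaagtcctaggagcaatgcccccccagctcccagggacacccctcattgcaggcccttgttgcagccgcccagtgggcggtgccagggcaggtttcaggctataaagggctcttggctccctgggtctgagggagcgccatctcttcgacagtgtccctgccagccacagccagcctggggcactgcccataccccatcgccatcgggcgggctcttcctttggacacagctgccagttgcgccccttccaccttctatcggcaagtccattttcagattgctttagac

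The libraries held between 15207539 and 24146224 counts assigned to genes. BMS493 replicates 2 and 3 stood apart from the other 6. Replicate 3 had a median correlation of log2 CPM (counts per 1000000 assigned counts) of 0.982 with the other 7 libraries, the lowest, and replicate 2 had 0.985, where the other 6 had 0.988 to 0.989. Replicate 3 also had the lowest share of mitochondrial counts, 0.339% against 0.807% to 1.25%. Its summed level of 21 collagen and matrix genes was 23120 CPM against 14320 to 16880 elsewhere. Replicate 2 had the highest summed level of 16 distal epithelial genes, 2372 CPM against 1179 to 1706. Their part in the results was not tested. The main groups of genes are therefore given with and without them. Lung identity was as labelled: Nkx2-1, the lung and thyroid lineage factor, stood at 198 to 312 CPM and Tbx4 of lung mesenchyme at 200.4 to 253, while genes of thymus and thyroid summed to at most 3.41 CPM.

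Of 17276 genes tested, 73 were called at an adjusted p under 0.05 (0.423% of those tested). With BMS493, 60 were lower (0.347%) and 13 were higher (0.0752%). Without BMS493 replicate 2 the same test called 32 of 17614 genes (0.182%), 31 of them lower. Of these 32, 27 were among the 73. Without replicate 3 it called 81 of 17625 (0.46%), 55 of them among the 73. Without both replicates it called 53, of which 32 were among the 73. Fitted to only the 8 B6 libraries, the same test called 27, of which 24 were among the 73. The calls lost in that fit included Rarb, Hoxa5, Meox2, Gli1, Gas1, Foxf1, Foxf2, Ctnna2, Ntsr1, Zfp469 and Plxdc1. Any 1 control library left out lowered the count to between 27 and 37, and leaving out BMS493 replicate 1 raised it to 201. In 22 of the 73 genes the call held in all 8 fits that left out 1 library. In 454 genes every BMS493 library was below every control library (2.63%), and in 359 every one was above (2.08%). Most changes were small. The log2 fold change was at least 1 in size in 23 of the 73 genes and under 0.5 in 28.

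**Figure D1:**
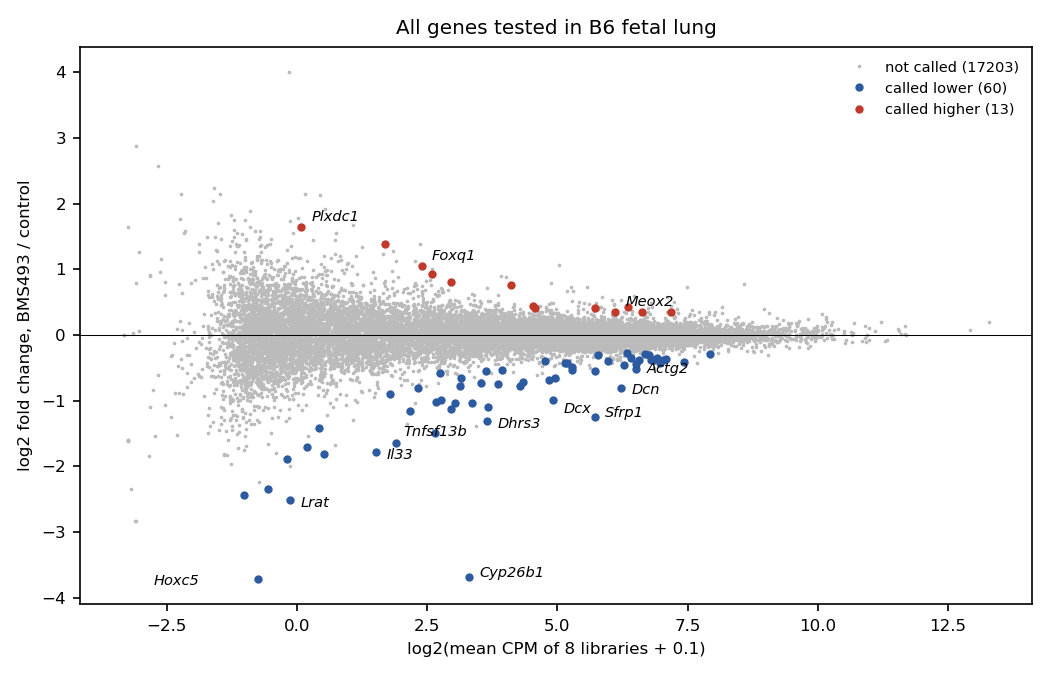
Log2 fold change (BMS493 over control, vertical axis) against mean level (log2 of mean CPM plus 0.1, horizontal axis) for all 17276 genes tested in B6 lung, with genes called lower in blue (60) and higher in red (13). Cyp26b1 lies far below other genes of its level at -3.68, while most called genes at high levels moved by under 0.5.

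The genes of retinoid metabolism with a call were all lower with BMS493. They were 2 of 12 tested genes of synthesis and storage, 1 of 2 of clearance, 1 of 6 of uptake and binding, and 1 of 12 receptors and coregulators, where 0.423% of all genes were called. Each of the 5 moved by a log2 fold change of 1 or more in size, which was -0.87 for Stra6 and -0.89 for Rarb without replicate 2. Calls of 3 of the 5 (Cyp26b1, Dhrs3 and Lrat) held in every fit that left out 1 library. Without replicate 2, 3 of 5 were called, and without replicate 3, 4 of 5.

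Cyp26b1 (ENSMUSG00000063415, chromosome 6), which hydroxylates and so removes retinoic acid, was at 13.3, 24.5, 14.9 and 20.3 CPM in the controls. With BMS493 it was at 1.11, 1.10, 2.47 and 1.21 CPM. The groups were far apart and the highest treated library was replicate 3. The mean was 91.9% lower, with a log2 fold change of -3.68 (SE 0.28, edgeR adjusted p = 2.51e-06). Dhrs3 (ENSMUSG00000066026, chromosome 4), the retinaldehyde reductase, was at 17 to 19.5 CPM in controls and at 4.34, 7.53, 9.54 and 7.35 with BMS493 (log2 fold change -1.31, SE 0.16, edgeR adjusted p = 8.94e-05). Again no treated library reached a control. Lrat, which esterifies retinol for storage, was rare. Its controls held 17 to 38 counts per library and the treated libraries 3 to 6. These came to 0.877, 1.40, 1.88 and 1.38 CPM against 0.252, 0.127, 0.267 and 0.345 (log2 fold change -2.51, edgeR adjusted p = 0.000514).

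Stra6, the cell-surface receptor that takes up retinol from its plasma carrier, was at 5.88 to 6.58 CPM in controls and 3.74, 1.23, 2.60 and 3.5 with BMS493. The call at -1.15 (SE 0.24, edgeR adjusted p = 0.0268) was lost without replicate 2 (0.069) and without replicate 3 (0.075). Rarb (ENSMUSG00000017491, chromosome 14), the receptor gene whose promoter holds the DR5 printed above, was at 7.89, 7.97, 8.16 and 9.51 CPM in controls. It was at 2.68, 3.00, 6.67 and 4.42 CPM with BMS493. Replicate 3 lay nearest to the controls, and the means were 8.38 and 4.19 CPM (log2 fold change -1.02, SE 0.20, edgeR adjusted p = 0.0190). Without replicate 2 the call was lost (0.079), and without replicate 3 it was held (0.00035). Exons of other genes on the opposite strand cover 38.4% of the Rarb exons in GENCODE M21, and without strand their reads cannot be told apart.

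The enzymes that make retinoic acid were not called. Aldh1a2, the main retinaldehyde dehydrogenase of the embryo, was at 39.6 to 47.9 CPM in controls and at 53.6, 27.9, 38.6 and 56.3 with BMS493, with treated libraries on both sides of the controls. Its log2 fold change was -0.04 (SE 0.17), and it was 0.13 without replicate 2. Rdh10, which oxidises retinol, was at -0.14 (SE 0.097, edgeR adjusted p = 0.708). Crabp2, a protein that binds retinoic acid in the cell, was at -0.33 (adjusted p = 0.759), and at -0.07 without replicate 2. Of the receptors, Rara was at -0.05 (adjusted p = 0.885) and Rarg at -0.31 (0.178).

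Over 25 tested genes known from textbooks to respond to retinoic acid, 6 were called, all lower, beside 0.347% called lower over all genes. A negative log2 fold change was seen in 23 of the 25 (92%), and in 48.1% of all genes. The median was -0.28, against 0.01 over all 17276 genes. It was -0.15 without replicate 2 and -0.23 without replicate 3, with 4 and 6 calls. The 6 were the 5 genes above and Hoxa5. This list overlaps that of retinoid metabolism, and its direction in these libraries was known when it was written.

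**Figure D2:**
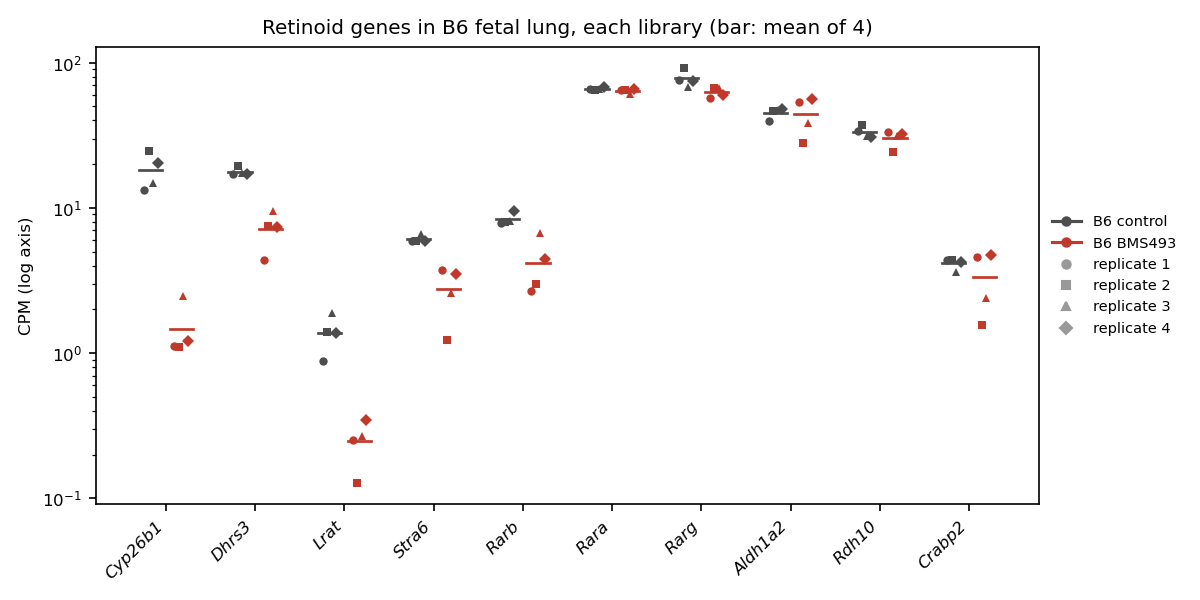
CPM (logarithmic axis) of 10 retinoid genes in each B6 library, controls in grey and BMS493 in red, with a symbol for each replicate number and a bar at the mean of 4. The groups do not overlap for Cyp26b1, Dhrs3, Lrat, Stra6 and Rarb, while those of Aldh1a2, Rdh10 and Crabp2 do.

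Of the called genes, 10 encode proteins of the extracellular matrix or proteins that modify it, 9 lower and 1 higher. This grouping, like the others by role below, was made by hand after the calls were known, so it has no number tested and is not a test of a theme. In the matrix lists, described last here, no member was called. Without replicate 2, 5 were called, and without replicate 3, 7. Decorin (Dcn), a proteoglycan that binds collagen fibrils, was at 96.8, 95, 96.9 and 90.4 CPM in controls and 62.8, 46.7, 50.3 and 58.1 with BMS493. The spread within each group was small beside the gap, and the log2 fold change was -0.80 (SE 0.088, edgeR adjusted p = 2.46e-05). With Cyp26b1, Dcn was the only called gene that kept its call in all 19 alternative fits, apart from the test against a fold change threshold. Lumican (Lum), a proteoglycan of the same family, was at 33.1, 38.5, 34.3 and 34.7 CPM in controls and 25.3, 16.8, 20.6 and 25.0 with BMS493. Its log2 fold change was -0.68 (edgeR adjusted p = 0.0019).

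Ecm1, a secreted matrix glycoprotein, fell by about the same amount in every treated library. Its mean was 13.7 ± 0.618 CPM in controls (SD, n = 4), and it was at 6.36, 7.06, 6.67 and 6.66 with BMS493 (log2 fold change -1.04, SE 0.14, edgeR adjusted p = 0.000351). Ccbe1, a secreted protein needed for the activation of VEGF-C in lymphatic growth, fell too (-0.71, adjusted p = 0.00143). So did Hapln1, which links hyaluronan to proteoglycans (-0.45), Sulf1, an enzyme that trims heparan sulfate (-0.51), Plat, tissue plasminogen activator (-0.66), Islr (-0.30) and Ccdc80 (-0.29), with edgeR adjusted p from 0.0197 to 0.0465. Col25a1, a transmembrane collagen, rose by 0.43 (adjusted p = 0.0349). Of the 6 genes from Hapln1 to Col25a1, all but Sulf1 lost their call without replicate 2, and Hapln1, Sulf1 and Plat lost it without replicate 3. None of the 21 genes of the collagen and matrix list was called, and their median was 0.13 (0.06 without replicate 3 and 0.14 without replicate 2). Of 13 elastic fibre genes none was called, and their median was 0.08 (-0.04 without replicate 2 and 0.03 without replicate 3). Fbn2, fibrillin 2, was at 0.27 (adjusted p = 0.0795).

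Of the 14 tested lung mesenchyme markers, 3 fell (Dcn, Lum and Foxf1), 1 rose (Meox2), and the median was 0.01. The 4 calls are 28.6% of the list, against 0.423% of all genes. Without replicate 2, 3 were called, and without replicate 3, 4 were called. The list summed to 1508 to 1560 CPM in controls and 1400 to 1501 with BMS493, without overlap. Fgf10, the mesenchymal signal for bud outgrowth, was at 0.15 (SE 0.080, edgeR adjusted p = 0.574). Tbx4 was at -0.04 (SE 0.067, adjusted p = 0.896). In whole lung, fewer cells of a type and less RNA per cell cannot be told apart.

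Genes of contractile cells were represented among the calls by Actg2 and 4 genes outside the marker list. The smooth muscle list had 15 tested members, of which 1 was called (6.67%, against 0.423% of all genes). A negative log2 fold change was seen in 13 of the 15 (86.7%, against 48.1% of all genes), and the median was -0.10 (-0.14 without replicate 2, -0.14 without replicate 3 and -0.16 without replicate 1). Without replicate 2, 1 member was called, and without replicate 3, 3 were (Actg2, Acta2 and Actc1). The called member was Actg2, the enteric isoform of smooth muscle actin. It was at 103, 108, 103 and 104 CPM in controls and at 78.6, 72.7, 77.6 and 80.9 with BMS493. The values within each group were close together and the groups did not overlap, and the log2 fold change was -0.43 (SE 0.063, edgeR adjusted p = 0.000947). Acta2, smooth muscle alpha actin, was at 590.2, 594, 556 and 592 CPM in controls and 421, 508, 502 and 463 with BMS493. The groups did not overlap, but the value of -0.30 (SE 0.072) missed the threshold (adjusted p = 0.0657) and passed it without replicate 3 (0.042). Actins are near-identical over their coding sequence, so the split between Actg2, Acta2 and Actc1 rests on the reads that were placed uniquely. Calponin (Cnn1) was at -0.36 (adjusted p = 0.0907). Smooth muscle myosin heavy chain (Myh11) was at -0.03 (SE 0.095, adjusted p = 0.948), with replicate 3 above and replicates 1 and 4 below all controls.

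Further calls outside that list were genes tied to actin or to contraction. Mrvi1, a partner of the cGMP-dependent kinase that relaxes smooth muscle, was at 44.6, 45.2, 49.8 and 44.1 CPM in controls and 37.2, 28.9, 28 and 33.5 with BMS493 (-0.53, edgeR adjusted p = 0.00461). Fblim1 (-0.38) and Pdlim7 (-0.38), which join actin to adhesions and stress fibres, and Rbpms2 (-0.53), an RNA-binding protein of smooth muscle precursors, also fell. Pdlim7 and Rbpms2 lost their call without replicate 2 (0.0565 and 0.0659). With Actg2 these made 5 genes, all lower, of which 3 were called without replicate 2 and 5 without replicate 3. Among 11 receptors for airway tone 1 was called (9.09%, against 0.423% of all genes). Chrm2, the M2 muscarinic receptor for acetylcholine, rose from 6.70, 4.09, 5.49 and 6.16 CPM to 12, 10.8, 6.74 and 9.25. The lowest treated library, replicate 3, lay just above the highest control. Its log2 fold change was 0.81 (SE 0.18, edgeR adjusted p = 0.0393), and it was called in 1 of 8 fits that left out a library, the one without replicate 3 (0.0045). Chrm3, the M3 receptor, was at -0.10 (adjusted p = 0.941).

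Signalling pathways were described next, through the lists of their ligands, receptors and targets. The pathway with most calls after retinoid signalling was Hedgehog, by which epithelial SHH acts on the mesenchyme. Without replicate 2 this order was lost, with 1 call in the Hedgehog list and 2 each in the Wnt and cytokine lists. Of 13 tested members 3 fell, beside 0.347% called lower over all genes. A negative log2 fold change was seen in 10 of the 13 (76.9%, against 48.1% of all genes), and the median was -0.18 (-0.16 without replicate 2 and -0.15 without replicate 3, with 1 and 3 calls). Gli1, the transcription factor that is also a readout of the pathway, was at 118, 129, 125 and 129 CPM in controls and 115, 82.1, 83.4 and 103 with BMS493. Replicate 1 lay close to the controls (-0.39, edgeR adjusted p = 0.0210). Gas1, a co-receptor for SHH, was at 42.8 to 47.5 CPM in controls and 31.2, 26.8, 37.6 and 34.9 with BMS493 (-0.49, adjusted p = 0.0117). Gli1 and Gas1 lost their call without replicate 2 (0.086 and 0.056) and were called without replicate 3. Foxf1, a forkhead factor of lung mesenchyme downstream of SHH, is described with its family below. The ligand gene Shh was at 0.23 (SE 0.080, adjusted p = 0.328), Ptch1, the receptor and a target, at -0.18 (0.443), and Gli2 at -0.31 (0.311).

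In the Wnt list 1 of 32 tested members was called (3.12%, against 0.423% of all genes) and the median was -0.04, with 2 calls without replicate 2 and 1 without replicate 3. Sfrp1 (chromosome 8), a secreted protein that binds Wnt ligands, was at 70.5, 77.4, 78.4 and 70.0 CPM in controls and 44.0, 20.1, 31.4 and 29.3 with BMS493. Replicate 2 was lowest and replicate 1 highest of the treated, all well below the controls (log2 fold change -1.25, SE 0.18, edgeR adjusted p = 0.00538). The call held in all 8 fits that left out 1 library. Axin2, a general target of Wnt signalling, was at 0.04 (adjusted p = 0.924).

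In the TGF-beta list 1 of 19 was called (5.26%, against 0.423% of all genes) and the median was 0.00, with no call without replicate 2 and 2 without replicate 3. Tgfb3, a ligand, was at 100.2, 98.1, 90.4 and 91.5 CPM in controls and 82.4, 71.3, 64.9 and 78.9 with BMS493 (-0.35, edgeR adjusted p = 0.0210, but 0.078 without replicate 2). Tgfb2 was at 0.04 (SE 0.075, adjusted p = 0.902). In the BMP list 1 of 23 was called (4.35%, against 0.423% of all genes). Bmper, a secreted modulator of BMP ligands, rose from 46.5, 40.8, 45 and 47.4 CPM to 48.6, 60.8, 67.8 and 63.0. Replicate 1 was barely above the controls, and the log2 fold change was 0.42 (adjusted p = 0.0327). That call was lost without replicate 2 (0.086) and without replicate 3 (0.095). In the FGF list none of 18 was called, 16 had a positive log2 fold change, and the median was 0.15 (0.13 without replicate 2 and 0.17 without replicate 3). Its members with the lowest p were Spry2 at 0.31 (adjusted p = 0.241) and Fgf7 at 0.70 (0.282). Of 16 Notch genes none was called.

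Some of the called cytokines and receptors belong to no developmental pathway list. Il33, an alarmin cytokine of lung, was at 3.76, 4.54, 4.20 and 4.72 CPM in controls and 0.757, 1.56, 1.67 and 1.03 with BMS493. All 4 treated libraries were below every control (log2 fold change -1.78, SE 0.30, edgeR adjusted p = 0.00376). Tnfsf13b (BAFF, a survival factor of B cells), with the DR5 printed above, was at 5.36, 5.37, 5.98 and 5.11 CPM in controls and 2.88, 0.634, 1.47 and 2.12 with BMS493. Replicate 2 was lowest, and the log2 fold change was -1.64 (SE 0.32, edgeR adjusted p = 0.0210, but 0.084 without replicate 3). These were 2 of 16 tested members of the cytokine list (12.5%, against 0.423% of all genes), whose median was -0.13 (-0.24 without replicate 2, -0.12 without replicate 3 and -0.01 without replicate 1). The chemokines Cxcl12 at -0.38 (adjusted p = 0.102) and Ccl21a at -0.63 (0.120) were not called. Ntsr1, a neurotensin receptor, fell from 7.61 to 11.6 CPM in controls to 5.60, 1.65, 3.60 and 2.35 (-1.49, adjusted p = 0.00476). Sema3d, a guidance ligand (-0.42), and Tnfrsf19 (-0.29) fell as well, but both lost their call without replicate 2 (0.126 and 0.14) and held it in 2 of 8 fits that left out a library. Plxdc1, a membrane protein of vessels, rose most of all called genes, from 0.464, 0.454, 0.593 and 0.328 CPM to 1.36, 1.48, 1.20 and 1.78 (log2 fold change 1.64, SE 0.29, edgeR adjusted p = 0.00632). The gene was rare, at 5 to 12 counts per library in controls and 18 to 35 with BMS493. Its call held in all 8 fits that left out 1 library. It was lost with only the 8 B6 libraries and with a stranded column (0.090).

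**Figure D3:**
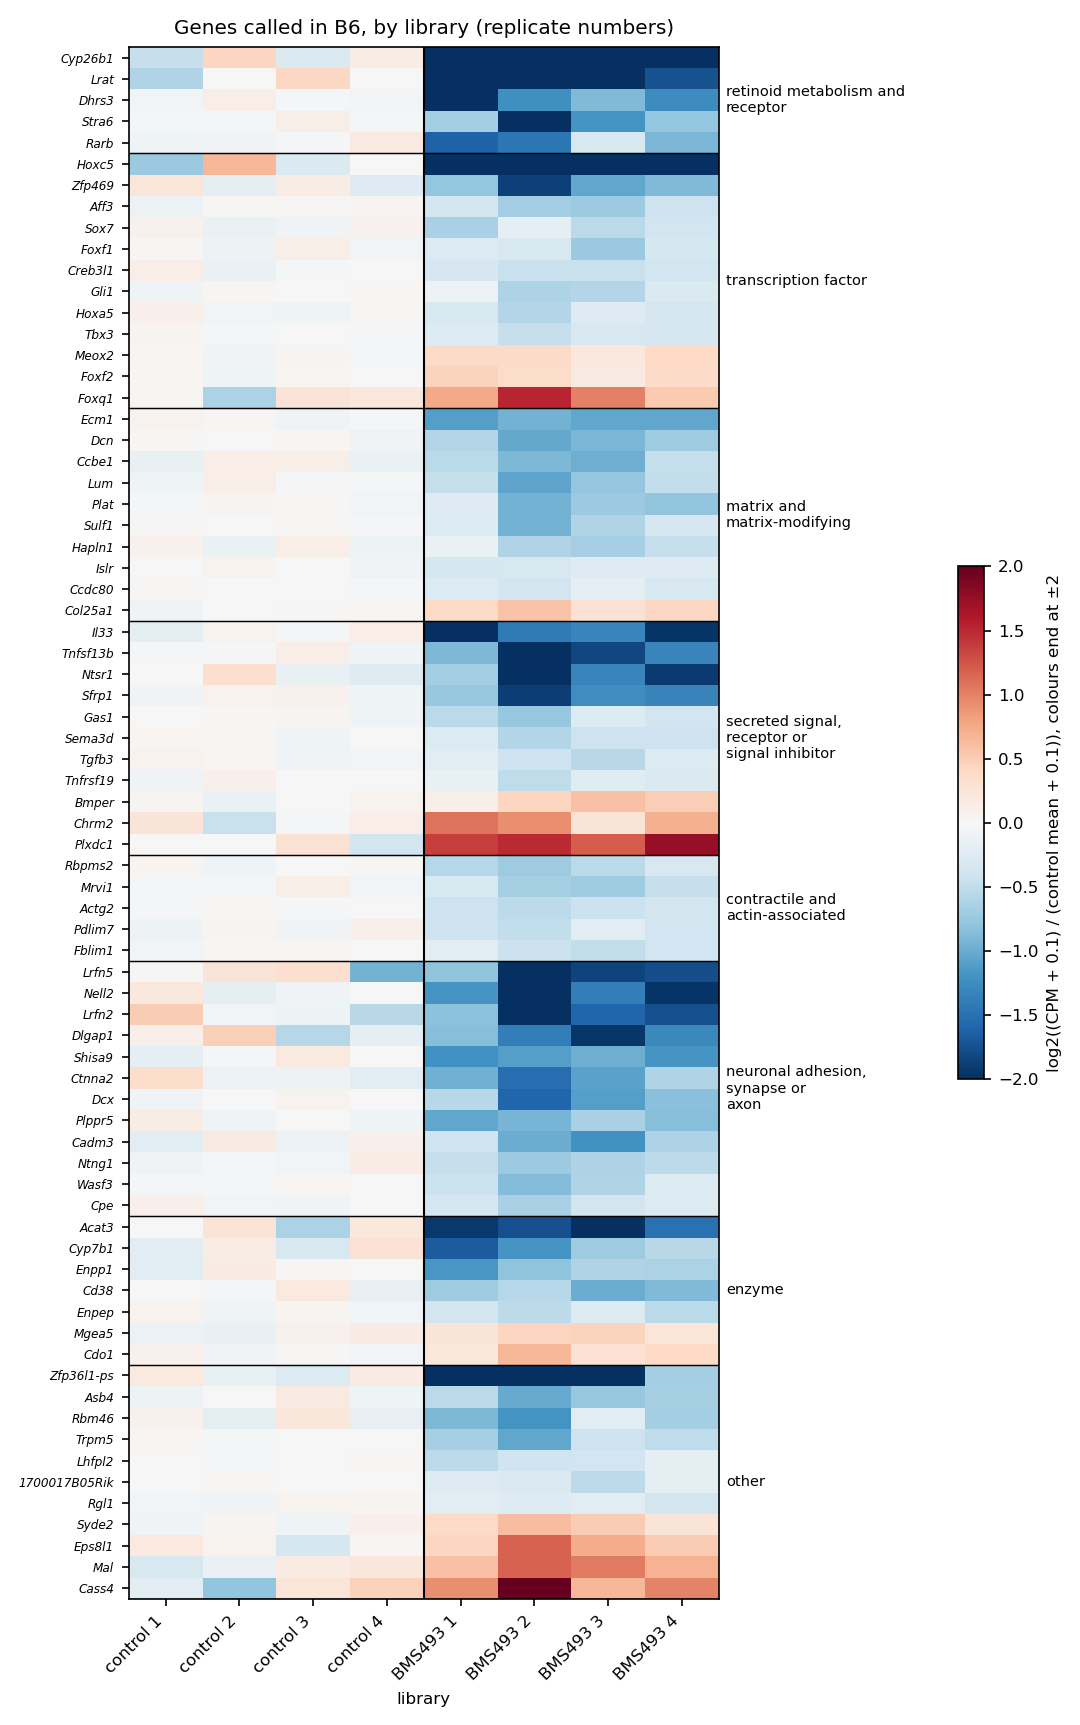
Each of the 73 called genes (rows, grouped by role) in each B6 library (columns), coloured by log2 of CPM plus 0.1 over the control mean plus 0.1, where blue is lower, red is higher and colours end at 2 in size. Replicate 2 shows the strongest colour in many rows, such as Stra6, Sfrp1 and Dcx, and replicate 3 is nearest to the controls for Rarb and Chrm2.

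Transcription factors were taken by family from gene symbols, 478 tested genes in 16 families, which are not complete. Of these 10 were called (2.09%, against 0.423% of all genes), 7 lower and 3 higher, and the median was -0.02. Without replicate 2, 4 were called, and without replicate 3, 10. The lowest family medians were -0.31 over 20 tested genes of the HOXL class of homeobox genes, which holds the Hox clusters, and -0.30 over 6 GATA genes. Without replicate 2 their order turned, at -0.18 and -0.22. Of 18 tested Hox genes 2 fell, beside 0.347% called lower over all genes. A negative log2 fold change was seen in 16 of the 18 (88.9%, against 48.1% of all genes), and the median was -0.33 (-0.22 without replicate 2 and -0.30 without replicate 3). Hoxa5, which lung mesenchyme needs for airway formation, was at 139.8, 125, 122 and 132 CPM in controls and 104, 86.3, 108 and 103 with BMS493. The groups did not overlap (log2 fold change -0.38, SE 0.069, edgeR adjusted p = 0.00865), and the call was lost in 1 of 8 fits that left out a library. Hoxc5 is near the limit of detection. Its controls held 10 to 37 counts per library and the treated libraries 0 to 3, or 0.516, 1.53, 0.742 and 0.918 CPM against 0.151, 0, 0 and 0.115. The fitted log2 fold change of -3.71 (edgeR adjusted p = 0.0356) depends on how zero counts are handled, and the call held in 1 of 8 fits that left out a library. Hoxc4 at -1.67 (adjusted p = 0.065) and Hoxa7 at -1.36 (0.0795) did not pass, although their groups did not overlap.

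The other HOXL call went up: Meox2, a mesodermal homeobox factor, rose from 62.1, 57.4, 62.8 and 59.4 CPM to 78.6, 78.4, 70.1 and 79.9. Replicate 3 was the lowest of the treated and still above the controls (0.35, SE 0.068, edgeR adjusted p = 0.0164, and 0.0033 without replicate 3). The call was lost without replicate 2 (0.0502) and without control replicates 1, 2 or 4, so it held in 4 of 8 fits that left out a library. Of 27 forkhead genes 3 were called (11.1%, against 0.423% of all genes), and the paralogs Foxf1 and Foxf2 were called in opposite directions. Foxf1 fell from 201, 184, 214 and 191 CPM to 164, 158, 119 and 155 (-0.40, adjusted p = 0.0233). Foxf2 rose from 89.3, 81.2, 89.4 and 86.4 CPM to 118, 111, 98.0 and 113 (0.35, adjusted p = 0.0210). In neither gene did the groups overlap. Foxf1 kept its call without replicate 2 (0.044) and without replicate 3 (0.026). It lost it without control replicates 1, 3 or 4 (adjusted p up to 0.104), so it held in 5 of 8 fits that left out a library. Foxf2 lost its call without replicate 2 (0.057) and held it in 2 of 8 fits, those without BMS493 replicates 1 or 3. Foxq1, another forkhead gene, rose by 1.05 (adjusted p = 0.0421), but exons of another gene on the opposite strand cover 66.1% of it. Its call was lost without replicate 2 (0.202) and without replicate 3 (0.0736) and held in 2 of 8 fits that left out a library, and its log2 fold change was as low as 0.57 over the alternative fits.

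Tbx3, a T-box factor of lung mesenchyme, was the transcription factor of a family with the lowest p. It was at 141, 133, 136 and 133 CPM in controls and 113, 98.8, 108 and 107 with BMS493 (-0.34, SE 0.062, edgeR adjusted p = 0.00781), and its call held in all 8 fits that left out 1 library. Sox7, a factor of endothelium, fell by 0.42 on the log2 scale (adjusted p = 0.0410) and was the 1 call among 14 SOX genes (7.14%, against 0.423% of all genes). It was called in 1 of 8 fits that left out a library, the one without replicate 2 (0.0080), and was lost without replicate 3 (0.086). Outside the genes matched by symbol, Aff3, a factor of transcription elongation complexes, was at 58.0, 64.0, 64.1 and 65.4 CPM in controls and 48.2, 38.6, 37.8 and 47.4 with BMS493 (-0.55, adjusted p = 0.00249). Creb3l1, a basic leucine zipper factor that drives secretory and matrix genes in osteoblasts, fell by 0.40 (adjusted p = 0.0172, but 0.0565 without replicate 2). The symbols searched for its family did not include it, so it is not among the 478 genes or their 10 calls. Zfp469, a zinc finger gene tied to collagen fibrils, fell by 1.10 (adjusted p = 0.00597). In the GATA family all 6 tested members had a negative log2 fold change and none was called; Gata5 was at -0.43 (adjusted p = 0.0772). Meis2, a TALE cofactor of Hox proteins, was at -0.35 (0.120) and missed the threshold as well. Factors that define lung epithelium were not called: Nkx2-1 at 0.21 (SE 0.10, adjusted p = 0.556), Sox2 of the airway at -0.20 (0.644) and Sox9 of the distal tip at -0.03 (0.960). Without replicate 2, Nkx2-1 was at 0.07.

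A further 12 called genes, all lower as were 60 of the 73 calls, are known mainly from work on neurons or cell adhesion. They were put together by hand from the calls, so they have no number tested and the grouping is not a test of a theme. Of these, 3 were called without replicate 2 and 8 without replicate 3. Dcx (doublecortin, a microtubule protein of migrating neurons) was at 38.2, 39.9, 42.2 and 40.1 CPM in controls and 27.3, 13.3, 18.6 and 22.3 with BMS493. Replicate 2 was lowest, and no treated library reached a control (log2 fold change -0.98, SE 0.15, edgeR adjusted p = 0.00331). Shisa9, an auxiliary protein of AMPA receptors, was at 9.23, 10.2, 12.1 and 10.5 CPM in controls and 4.49, 4.86, 5.27 and 4.59 with BMS493 (-1.13, adjusted p = 0.00111). Ctnna2, neuronal alpha catenin, fell by 1.03 (adjusted p = 0.00476). Each of these 3 kept its call in all 8 fits that left out 1 library. Ctnna2 lost its call in the fit to only the 8 B6 libraries. The other 9 were Lrfn5 (-1.89), Nell2 (-1.81), Lrfn2 (-1.70), Dlgap1 (-1.42), Plppr5 (-0.89), Cadm3 (-0.77), Ntng1 (-0.58), Wasf3 (-0.54) and Cpe (-0.40), with edgeR adjusted p from 0.0119 to 0.0441, and none of these 9 was called without replicate 2. Lrfn5, Nell2, Lrfn2 and Dlgap1 were rare, at 9 to 62 counts per control library and 3 to 19 per treated library. For Lrfn5 the groups overlapped in CPM.

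The general neuronal markers were rare and none of the 9 tested was called, while 1 (Tubb3, adjusted p = 0.0194) was called without replicate 2. Their median was -0.55 (-0.34 without replicate 2 and -0.51 without replicate 3). Their summed level, untested members included, was 27.2, 30.4, 29.6 and 26.1 CPM in controls and 22.2, 18.7, 24.9 and 21.5 with BMS493, so the groups did not overlap. Tubb3, neuronal tubulin, was at -1.54 (adjusted p = 0.0772) and Stmn2 at -0.75 (0.150). Of 11 tested genes of neural crest and glia none was called and 9 had a negative log2 fold change. Their median was -0.19 (-0.06 without replicate 2 and -0.28 without replicate 3). The sums of the list, untested members included, overlapped at 146 to 151 CPM in controls and 147 to 170 with BMS493. Whether fewer neurons, less RNA per neuron or expression in other cells lies behind the 12 genes was not tested.

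The remaining calls were enzymes and genes with no common theme. Cd38, which consumes NAD and makes cyclic ADP-ribose, a calcium-releasing messenger in airway smooth muscle, was at 24.7, 23.9, 28.2 and 21.9 CPM in controls and 15.1, 16.5, 12.3 and 13.3 with BMS493. The groups did not overlap (-0.78, SE 0.10, edgeR adjusted p = 0.000351), and the call held in all 8 fits that left out 1 library. Enpep, an aminopeptidase that cleaves angiotensin II (-0.42), Enpp1, which makes pyrophosphate (-0.81), and Cyp7b1, an oxysterol hydroxylase (-0.99), fell too. All 3 lost their call without replicate 2 (adjusted p = 0.0536, 0.103 and 0.0779) and kept it without replicate 3, and Enpp1 was called in 1 of 8 fits that left out a library. Of the 7 called enzymes, Cd38 included, 1 was called without replicate 2 and 6 without replicate 3. Asb4, a ubiquitin ligase subunit, fell by 0.75 on the log2 scale (adjusted p = 0.00111). Mal, a membrane protein of apical transport, rose by 0.92 (adjusted p = 0.0197) and Eps8l1 by 0.76 (0.0259). Both were highest in replicate 2, at 9.43 and 29.0 CPM, and were not called without it (0.086 and 0.11). Mgea5, Syde2 and Cdo1 rose by 0.35, 0.45 and 0.41 (adjusted p = 0.021, 0.0368 and 0.0411) and were not called without replicate 2 (0.079, 0.145 and 0.195). Cass4 rose by 1.39 (adjusted p = 0.0393), with replicate 2 at 7.95 CPM and the other 3 treated libraries at 2.87 to 3.62. Without replicate 2 its log2 fold change was 0.94 and the call was lost (0.195).

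**Figure D4:**
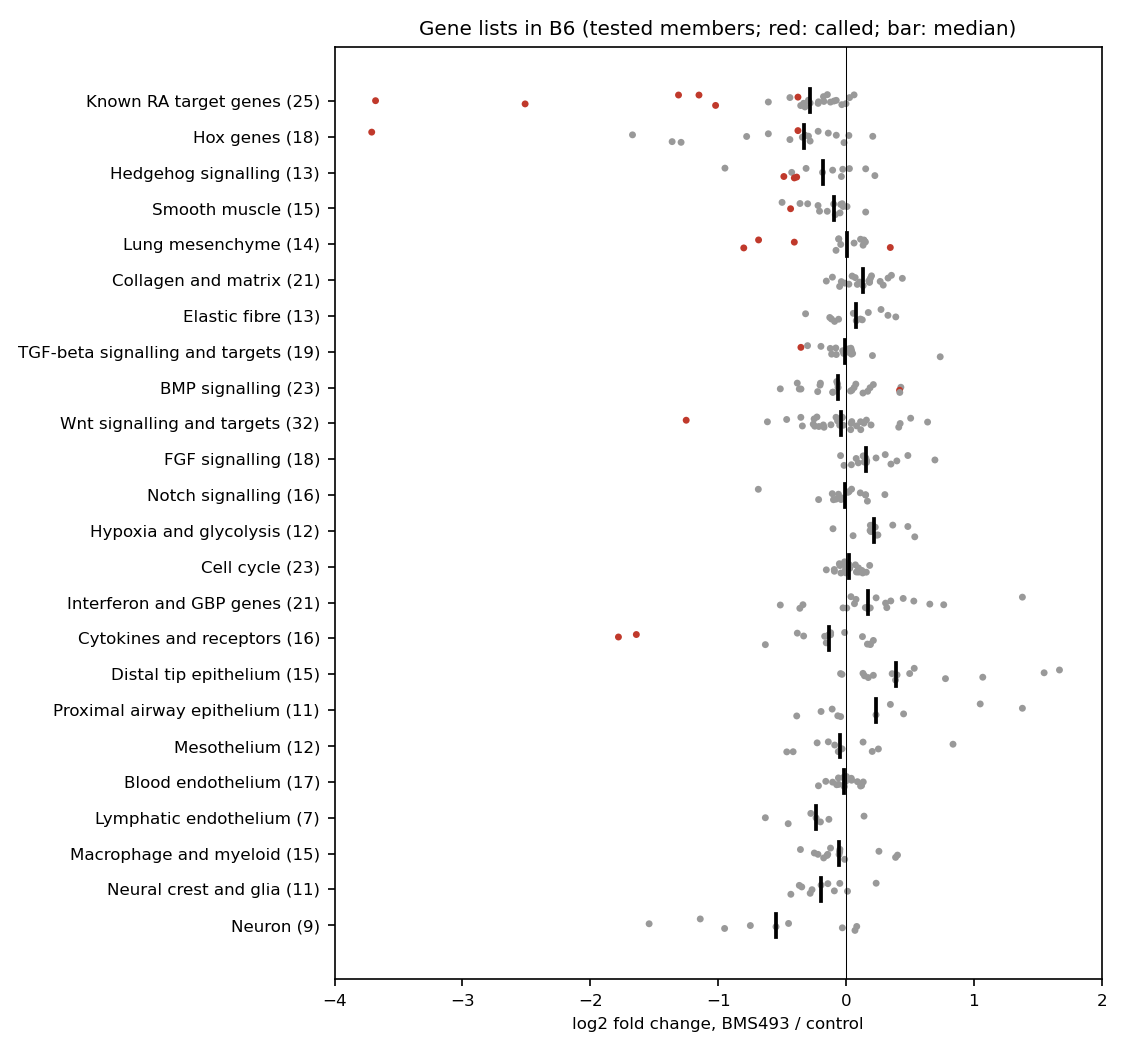
Log2 fold change (BMS493 over control, horizontal axis) of every tested member of 24 gene lists (number tested in brackets), with called members in red and a bar at the median. The medians of retinoic acid targets (-0.28), Hox genes (-0.33) and neuronal markers (-0.55) lie to the left of 0, and that of distal tip epithelium (0.39) to the right, with no called member.

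Cell types were followed through lists of markers. The 4 lists of distal tip, alveolar type 1, airway and general epithelium had no call, and their medians of 0.14 to 0.39 were -0.04 to 0.10 without replicate 2. The 15 distal tip genes had a median of 0.39, which was 0.10 without replicate 2 and 0.35 without replicate 3. Surfactant protein C (Sftpc) was at 286, 248, 249 and 341 CPM in controls and at 179, 867.5, 589.6 and 288 with BMS493. The treated libraries thus lay on both sides of the controls, and the value of 0.78 (SE 0.39) was not called (adjusted p = 0.578). Sftpb went the same way, at 20.3 to 21.7 CPM in controls and 18.4, 87.3, 44.3 and 26.6 with BMS493 (1.07, adjusted p = 0.415). Foxj1 of ciliated cells was at 2.88, 15.9, 6.54 and 3.73 CPM with BMS493 against 2.27 to 3.74 in controls (1.38, adjusted p = 0.308). The 9 general epithelial genes had a median of 0.21, and Epcam was at 0.20 (SE 0.062, adjusted p = 0.241). These 9 summed to 1105 to 1146 CPM in controls and 1148, 1597, 1244 and 1151 with BMS493, without overlap. Airway genes summed to 70.2 to 80.5 CPM in controls and 56, 114, 97.0 and 62.4 with BMS493.

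In endothelium none of the 17 tested genes of blood vessels was called and the median was -0.01. The 7 tested lymphatic genes had a median of -0.23 (-0.22 without replicate 2 and -0.19 without replicate 3) with none called. With untested members included, the list summed to 262 to 284 CPM in controls and 199 to 248 with BMS493, without overlap. Of 15 macrophage genes and 12 erythroid genes none was called. Mesothelium, the lung surface layer that makes retinoic acid through ALDH1A2, had no call among 12 genes, and its median was -0.05 (0.05 without replicate 2). Upk3b, a mesothelial membrane protein, was at 51.6 to 59.7 CPM in controls and 49.8, 32.1, 35.7 and 45.5 with BMS493 (-0.46, SE 0.11, adjusted p = 0.0583).

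Markers of tissues next to the lung were low but varied between libraries. Heart genes summed to 85.6 to 101 CPM in controls and 46.4, 77.9, 99.8 and 55.0 with BMS493. Actc1, cardiac actin, is the member shared with smooth muscle (-0.50, adjusted p = 0.158). Genes of liver summed to 30.7 to 52.2 CPM and those of oesophagus and stomach to 25.3 to 38.5 CPM over the 8 libraries. Cartilage genes were highest in replicate 3, at 543 CPM against 407 to 465 in the others, where Hapln1, the 1 called of 11 tested members (9.09%, against 0.423% of all genes), was at 56.5 CPM and lowest. The part of these tissues in the calls was not tested.

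**Figure D5:**
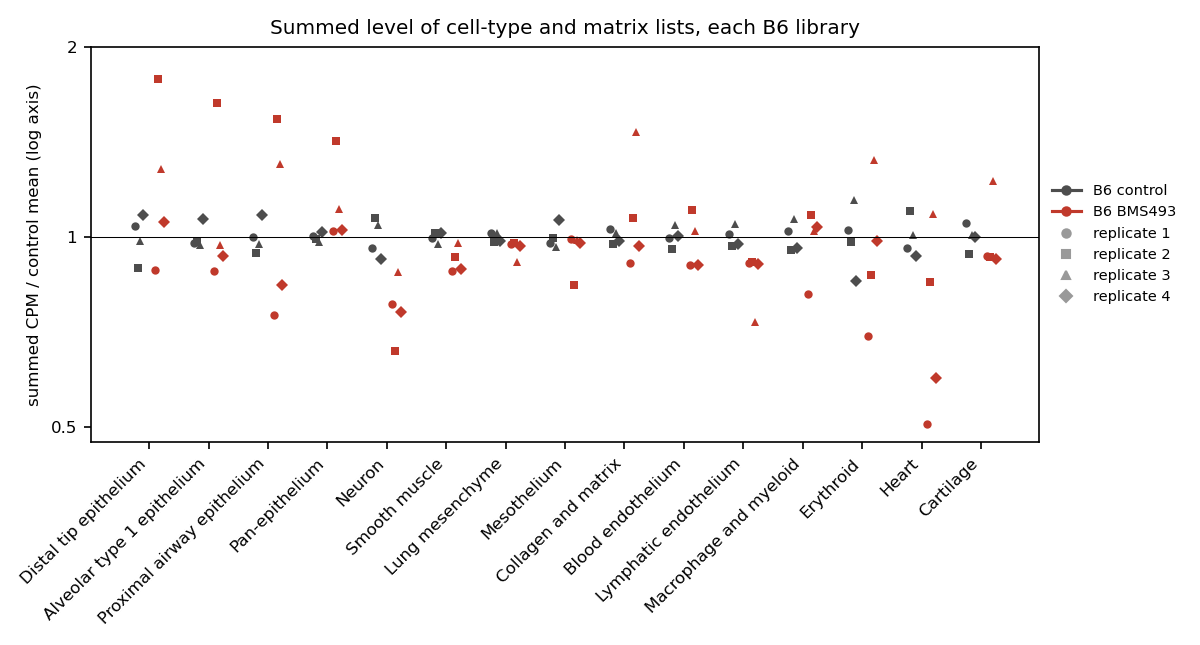
Summed CPM of 15 marker lists in each B6 library, divided by the control mean (logarithmic axis), controls in grey and BMS493 in red with a symbol for each replicate number. BMS493 replicate 2 is highest for the epithelial lists, and replicate 3 for collagen, erythroid and cartilage genes. All 4 treated libraries lie below the controls for neuronal, lymphatic and lung mesenchyme genes, and above them for general epithelium. The margin is narrow for lung mesenchyme and general epithelium.

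The effect in B6 was set beside that in A/J, where the same model called 84 genes (0.486%). A test of the difference called 1 gene of 17276 (0.00579%), and 636 had an unadjusted p under 0.05. The gene was Gbp2, a guanylate-binding protein induced by interferon. In B6 it was at 2.01, 3.02, 2.42 and 2.49 CPM in controls and 1.77, 2.11, 1.54 and 1.49 with BMS493, which overlap (log2 fold change -0.51, edgeR adjusted p = 0.420). In A/J the log2 fold change was -2.67, and the difference of B6 minus A/J was 2.16 (SE 0.28, adjusted p = 0.000737). Of the genes that B6 called, 69 of 73 had the same sign in A/J. Some called in B6 were near 0 in A/J, such as Ctnna2 (-0.02), Gli1 (-0.03), Sulf1 (-0.04) and Bmper (0.04). None of these differed between strains by the test of the difference, so no call is shown to be particular to B6.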

How the data were processed

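Poly(A) RNA of B6 fetal lung was sequenced in 8 libraries, 4 per group, within a series of 16. The authors deposited 1 file per library of raw counts for 57180 genes and 4 lines that are not genes, which took 23.1% to 28.3% of fragments over the 16 libraries and were left out. FastQC, cutadapt, STAR and the build GRCm39 are named in the submitters' processing notes. Versions, the annotation and the read length are not given in the sources used here. The first strand column held 51.0% to 52.0% of stranded counts, so the column without strand was used. Symbols and exon overlaps (bedtools 2.31.1) came from GENCODE M21, which matched 51933 genes with 98.9% of counts. Its build is GRCm38, so only the RefSeq promoter windows carry coordinates.

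Tables were assembled in Python 3.11.15 with pandas 2.3.3. Genes were filtered with filterByExpr (17276 kept, 39904 removed) and TMM scaling was applied. In R 4.3.3, edgeR 4.0.16 fitted its robust quasi-likelihood model with 1 mean per group to all 16 libraries (12 residual degrees of freedom). Every adjusted p is from its two-sided test with Benjamini-Hochberg adjustment over all genes tested, unless named. A gene was called, and is said to have risen or fallen, at an adjusted p under 0.05. The step was tested on simulated counts with known changes. CPM were computed from the counts with TMM scaling. Gene lists and families are described by counts and medians only.

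The members, lists and alternatives were chosen with earlier results of these data known. Named genes were up to 15 lowest and up to 15 highest called protein-coding genes with no overlap between groups and a mean of 1 CPM or more (15 and 12 met this), called list members, up to 4 members of a list with the lowest p, and a panel of retinoid, muscle and lung genes. Further genes, the roles given to called genes and the genes compared with A/J were chosen after their values were seen. Alternatives were RLE scaling, DESeq2 1.42.0, other filters, fewer libraries, a replicate or library-set term, a stranded column and a fold change threshold.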

Additional observations from a re-analysis of the deposited data

Results flagged for a closer look

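The values here are single libraries far from the other 3 of their group by Dixon's test at 95%, which chance flags in about 1 group in 20, and 1 difference between strains. Over the genes examined, 16 of 266 groups were flagged. Among BMS493 libraries, replicate 3 was high for Cyp26b1 (2.47 CPM against 1.10 to 1.21) and low for Meox2 (70.1 against 78.4 to 79.9). Replicate 2 was high for Cass4 (7.95 against 2.87 to 3.62) and Hey2 (4.02 against 2.73 to 2.94). Replicate 4 was high for the pseudogene Zfp36l1-ps (0.574 against 0.0505 to 0.0846) and low for Rgl1 (68.5 against 74.4 to 75.6).

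Among controls, replicate 2 was high for Dhrs3 (19.5 CPM against 17 to 17.3) and low for Nkx2-1 (198 against 217 to 219). Replicate 3 was high for Stra6 (6.58 against 5.88 to 5.91) and Cxcl12 (146 against 135 to 136). The same replicate was low for Acta2 (556 against 590.2 to 594) and Crabp2 (3.61 against 4.26 to 4.38). Replicate 4 was high for Rarb (9.51 against 7.89 to 8.16), Ntng1 (8.85 against 7.53 to 7.73) and Ager (30.9 against 26.7 to 27.2). Replicate 1 was low for Aldh1a2 (39.6 against 46.5 to 47.9). Gbp2 differed between strains, with an effect of B6 minus A/J of 2.16 on the log2 scale (edgeR adjusted p = 0.000737).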

How the results depend on the processing

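The count of 73 calls (13 higher, 60 lower) in B6 moved with the processing, while every one of the 73 kept its direction in every fit that gave it a value. DESeq2 called 156 (40 higher, 116 lower) and no filter 260 (107 higher, 153 lower), each holding all 73. Only the 8 B6 libraries gave 27 (2 higher, 25 lower), 24 of them among the 73. A threshold of 1 on the log2 fold change gave 1 (0 higher, 1 lower). The fits chosen after seeing the data gave 19 (3 higher, 16 lower) with libraries YS1 to YS8, 4 (0 higher, 4 lower) with YS9 to YS16, and 53 (5 higher, 48 lower) without both BMS493 replicates 2 and 3. Leaving out 1 library gave 27 to 201 calls (1 to 69 higher, 26 to 132 lower). The interaction, with 1 call, had 2 under DESeq2, 12 without the filter, 0 with the threshold of 1, 0 and 0 in the library sets, and 1 to 2 without 1 library. For these changes the cause was not tested. With AGGTCA required in both half-sites, 0 genes called lower had the DR5. Replicate numbers did not pair the libraries (same-number deviations in B6 correlated at -0.07 to -0.01). With the replicate block 63 were called, 51 of them among the 73.

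No called gene reversed. Of genes not called, Aldh1a2 changed sign at 0.274 (BMS493 replicates 2 and 3 out) and 0.002 (YS9 to YS16), and ran from -0.18 to 0.133 when 1 library was left out. Sox9 was at 0.002 (replicates 2 and 3 out) and 0.103 (YS1 to YS8), and ran from -0.175 to 0.043 with 1 library out. Tbx4 was at 0.035 and 0.004 in those fits and ran from -0.079 to 0.024. Myh11 was at 0.054 and Tgfb2 at -0.131 with YS9 to YS16, and with 1 library out they ran from -0.134 to 0.023 and from -0.027 to 0.124. Without replicates 2 and 3, Crabp2 was at 0.159, Sftpc at -0.27 and Ager at -0.079. With YS9 to YS16, Flt1 was at -0.001, Rdh10 at 0.036 and Nkx2-1 at -0.026. Of 506 list medians under alternatives, 21 moved by more than their SD over the treated libraries. Depth limits genes such as Hoxc5 and Lrat, with 3 or fewer counts in some libraries.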

Other observations

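Some of the lists with no called member that are not described above are given here as values. Of 12 tested genes of hypoxia and glycolysis, 11 had a positive log2 fold change and the median was 0.22, against 0.01 over all genes. It was 0.26 without BMS493 replicate 2, 0.23 without replicate 3 and 0.11 without replicate 1. Pdk1, which diverts pyruvate from the mitochondria, was at 50.7, 60.7, 64.7 and 67.1 CPM in controls and 112, 79.5, 86.6 and 75.2 with BMS493. The groups did not overlap, and the gene was not called (0.54, edgeR adjusted p = 0.114). The list summed to 4004 CPM in BMS493 replicate 1 and to 2492 to 3361 in the others.

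Of 14 cholesterol and lipid synthesis genes, 11 had a positive log2 fold change with a median of 0.07, and none was called. The 23 cell cycle genes had a median of 0.02, with none called. Of 21 genes of the interferon response, 17 had a positive log2 fold change and the median was 0.17, which was 0.03 without replicate 2. The mast cell list had a median of 0.31 over 6 genes (0.11 without BMS493 replicate 4). Its chymase gene Cma1, called higher in A/J, was at 0.928 to 2.52 CPM in B6 controls and 2.27, 4.06, 2.00 and 4.65 with BMS493, which overlap (0.79, edgeR adjusted p = 0.463). The 4 Y-linked genes summed to 198 to 207 CPM in controls and 209 to 227 with BMS493, without overlap. All 4 had a positive log2 fold change and none was called.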
